A study of Mus musculus with 4 samples.

Results

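The clusters described here are 3 stretches of the mouse genome rich in duplicated KRAB zinc finger genes, taken as fixed windows of build mm9: chr2:175000000-177900000, chr4:145000000-147300000 and chr13:66500000-68000000. Their members are the CCGG sites inside these windows, 3122 of 1594137 sites, with 1073 on chr2, 1256 on chr4 and 793 on chr13. The sites were taken by position and not by any measured value, although the windows were set with earlier results of these data known. HELP tagging was used to read DNA methylation in a mouse embryonic stem (ES) cell line, MC1-ZE7, of strain MC1 (129S6/SvEvTac) at passage 31, which carries a transgene for the fluorescent protein Emerald under the Zscan4c promoter. DNA of the Emerald-high and of the Emerald-negative fraction was cut with HpaII and, apart, with MspI, which gave 4 libraries. Both sorted fractions came from reporter cells grown without feeders on gelatin in medium with serum and leukemia inhibitory factor. HpaII cuts CCGG only where the central CG is unmethylated, whereas MspI cuts it either way. With 1 library per enzyme and fraction no difference below has a replicate check, and every interval (95%) covers counting error only, since the tags carry no molecular identifiers. Sorting on the reporter separates cells by activity of that promoter, so a fraction is a model of Zscan4-positive or Zscan4-negative cells only as far as the transgene follows the endogenous genes.

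KRAB zinc finger proteins are DNA-binding repressors: an array of zinc fingers binds DNA, and the KRAB domain recruits TRIM28 (KAP1), which brings in the histone methyltransferase SETDB1. Many of them silence transposable elements in embryonic stem cells and early embryos, where the silenced elements carry H3K9me3 and DNA methylation. Their genes multiply by tandem duplication, so that neighbouring copies are often nearly identical in sequence. Among those of the chr13 region, Rsl1 represses male-specific genes in the liver.

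By RefSeq gene order (assembly GRCm38.p6, used for names and neighbours only), the chr2 region holds 32 protein-coding genes between Edn3 and Phactr3, 9 of them with a Zfp symbol. Those 9 are Zfp931, Zfp965, Zfp966, Zfp967, Zfp968, Zfp970, Zfp971, Zfp972 and Zfp973, and most of the others have provisional Gm symbols. The chr4 region holds 19 protein-coding genes between Tnfrsf8 and Miip, 16 of them with a Zfp symbol, and also Rex2. The chr13 region holds 27 between Ptdss1 and Mtrr, 19 of them with a Zfp symbol that ends in a number. Zfp729a, Zfp729b, Zfp874a and Zfp874b are also among the 27, together with Rsl1 and Rslcan18. A CCGG lay within 250 bases before to 50 after the start in 27 of 36 RefSeq promoters of the chr2 genes (75%), in 3 of 17 of the chr4 genes (17.6%) and in 15 of 26 of the chr13 genes (57.7%), against 52.8% of all 32851 promoters of the table. These promoters came from 31 of the 32 genes on chr2, 14 of the 19 on chr4 and 24 of the 27 on chr13.

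The chr2 promoters show how alike the copies are. In 6 genes of the chr2 region (Zfp965, Zfp966, Zfp967, Zfp968, Zfp973 and Gm14295) the promoter carries a pair of CCGG sites whose starts lie 203 bp apart, a spacing held by 16 of the 32851 promoters (0.0487%). The 207 bases from the first to the second CCGG were identical in 4 of these genes, shown for Zfp968, and identical between Zfp965 and Zfp973, shown for Zfp965. The sequences are from RefSeq, build GRCm38.p6. Zfp968 is at chr2:175372246-175372452 and Zfp965 at chr2:175469795-175470001, both on the plus strand. Capitals mark CCGG, the motif searched (its own reverse complement, so both strands are covered), and the base at which the sequences differ.
Zfp968: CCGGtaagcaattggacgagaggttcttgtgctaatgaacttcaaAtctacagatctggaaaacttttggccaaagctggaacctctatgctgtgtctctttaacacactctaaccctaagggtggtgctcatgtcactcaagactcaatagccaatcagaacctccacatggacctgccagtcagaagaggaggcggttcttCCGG
Zfp965: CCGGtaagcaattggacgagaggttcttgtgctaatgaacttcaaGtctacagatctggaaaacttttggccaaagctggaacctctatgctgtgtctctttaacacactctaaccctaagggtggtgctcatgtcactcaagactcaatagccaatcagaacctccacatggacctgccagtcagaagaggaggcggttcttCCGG
The difference is A46G, counted from 1 at the first base of the first CCGG, with the base of Zfp968 first. The first 30 and the last 30 bases of this stretch, from which a tag read inward would come, were the same in all 6 genes. The bases on the outer side of each CCGG were not compared.

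The same 203 bp spacing occurred 11 times among the 1072 neighbouring CCGG pairs of the mm9 chr2 window (1.03%), against 1056 of 1594116 neighbouring pairs in the genome (0.0662%). The pairs ran over the stretch from position 175197748 to 177333530. The first and second of them began 97.549 kb apart, which is also the distance between the Zfp968 and Zfp965 pairs in GRCm38.p6, and the next 2 in line began 97.547 kb apart. All 22 sites of these pairs held 0 tags in each of the 4 libraries, which allows up to 3 tags per library over the 22 sites. The MspI libraries were as empty as the HpaII libraries at these sites. The methylation of the sites with this spacing was therefore not read, in Emerald-high or in Emerald-negative cells. The mm9 pairs were matched by spacing alone, and which of them belong to the 6 genes was not tested.

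Tags were scarce or shared over most of the clusters. A site was called fractional where its tag value lay more than 0.01 from a whole number in any of the 4 libraries, as when 1 tag is divided among several matching positions. Fractional sites made up 23.9% of the chr2 cluster (interval 21.3 to 26.5%), 46.4% of the chr4 cluster (43.6 to 49.2%) and 19.7% of the chr13 cluster (17.0 to 22.6%), against 3.01% of sites in the rest of the genome. No tag in any library was found at 60.7% of chr2 sites (57.7 to 63.6%), 33.6% of chr4 sites (30.99 to 36.3%) and 39.0% of chr13 sites (35.6 to 42.5%), against 24.2% in the rest. Whole tags were therefore left at 15.5% of sites on chr2, 19.98% on chr4 and 41.4% on chr13, against 72.8% in the rest. The chr2 cluster stood apart by its empty sites and the chr4 cluster by its fractional ones. Of the tags themselves, fractional sites held between 70.1 and 73.5% on chr2 and between 73.0 and 84.8% on chr4 over the 4 libraries. On chr13 they held between 36.9 and 39.8%.

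**Figure D1:**
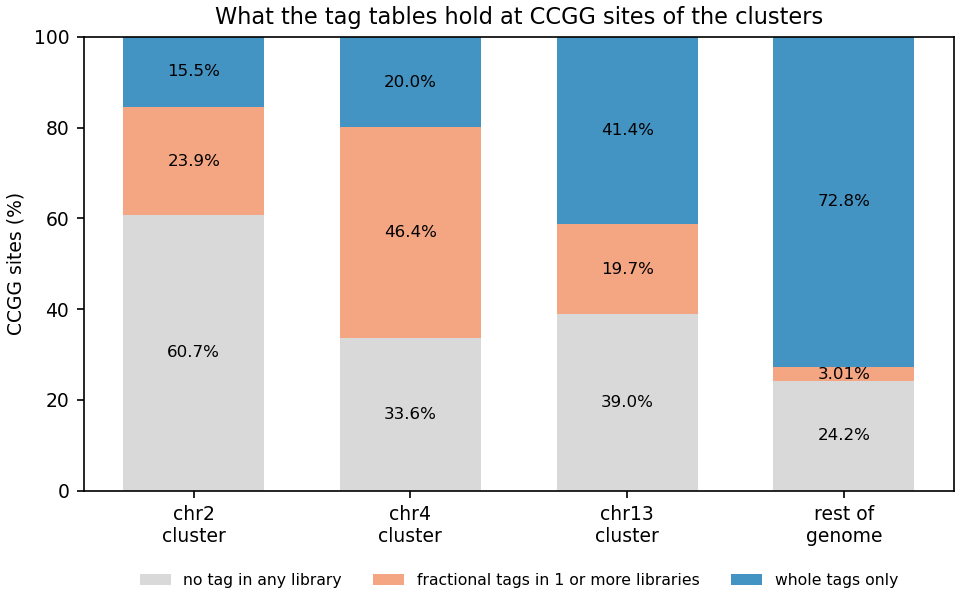
Stacked bars give the percentage of CCGG sites (y axis) with no tag in any library, with fractional tags in 1 or more of the 4 libraries and with whole tags only, for the chr2, chr4 and chr13 clusters and the rest of the genome. Whole-tag sites fill 15.5%, 19.98% and 41.4% of the bars of the clusters, against 72.8% in the rest.

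The site density class also mattered. A site was classed by how many CCGG, itself among them, lay no more than 500 bp away: isolated (1), 2 to 4, 5 to 9, or dense (10 or more, typical of CpG islands). The chr4 cluster held 121 dense sites, and 71.1% of them were fractional, against 1.91% of the dense sites in the rest of the genome. The chr2 cluster had 14 dense sites and the chr13 cluster 18, and 0 of these were fractional. On chr2 the empty sites made up 55.3% of isolated sites and 67.1% of those with 2 to 4 CCGG. The window edges met the duplicated sequence differently. In the 1 Mb on either side of the chr2 window 4.16% of sites before it and 0% after it were fractional, and beside the chr4 window 3.31% before and 0.747% after. Beside the chr13 window 41.6% before and 17.96% after were fractional, so on chr13 the sequence that gives fractional tags runs past both edges of the window.

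The spacing of the sites themselves recurred within the chr2 and chr4 clusters. A run of 3 successive CCGG spacings found more than once in the same cluster took in 702 of the 1073 chr2 sites (65.4%), 498 of the 1256 chr4 sites (39.6%) and 0 of the 793 chr13 sites. No share from the rest of the genome was set beside these. In these recurring runs 73.4% of the chr2 sites had no tag, and 57.6% of the chr4 sites were fractional. Outside them the shares were 36.7% without a tag on chr2 and 39.1% fractional on chr4. The most frequent spacing on chr2 was 95 bp, with 31 pairs or 2.89% of neighbouring pairs, against 0.104% in the genome, and 50 of its 62 sites held no tag. On chr4 it was 37 bp, with 11 pairs, and 20 of their 22 sites were fractional. The sites of those 37 bp pairs together held 825 HpaII and 386 MspI tags in Emerald-high cells, against 1605 HpaII and 284 MspI tags in Emerald-negative cells. A spacing of 84 bp, the coding length of 1 zinc finger repeat, was found exactly 7 times on chr4, 1 time on chr2 and 1 time on chr13, where neighbouring spacings within 10 bp averaged 3.55, 0.75 and 1.00 pairs.

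Positions within a cluster also shared their tag values. Of the fractional sites with at least 20 tags over the 4 libraries, 340 of 397 on chr4, 101 of 126 on chr2 and 34 of 82 on chr13 had exactly the same 4 values as another position of the same cluster. No share of fractional sites in the rest of the genome was set beside these. The 397 chr4 sites held 161 distinct sets of values, the 126 chr2 sites 52 and the 82 chr13 sites 64. At 8 positions of the chr2 cluster, spread over 2661 kb, the file gave 6.70 HpaII and 16.4 MspI tags in Emerald-high cells, against 4.2 HpaII and 20.5 MspI tags in Emerald-negative cells. Such positions are not separate measurements. Whole-tag sites were not free of this. Among those with at least 20 tags, 14 of 59 on chr2, 20 of 143 on chr4 and 6 of 180 on chr13 shared all 4 values, against 1.39% of such sites within 1 Mb pieces of the rest. One set of 138 HpaII and 37 MspI tags in Emerald-high cells, against 206 HpaII and 45 MspI tags in Emerald-negative cells, stood at 2 chr13 positions 148 kb apart. Whether these whole values come from 1 locus counted at each copy was not tested.

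The level of cutting is given as the HpaII/MspI ratio of tags scaled to each library's total, which is 1 over all sites together; a higher ratio means more HpaII cutting, and so less methylation, relative to the genome's average. At isolated whole-tag sites the 3 clusters differed. The chr13 cluster stood at 1.25 in Emerald-high cells (1.15 to 1.36), against 0.935 in Emerald-negative cells (0.870 to 1.01). The chr4 cluster stood at 0.532 in Emerald-high cells (0.483 to 0.585), against 0.336 in Emerald-negative cells (0.305 to 0.370). The chr2 cluster stood at 0.762 in Emerald-high cells (0.651 to 0.892), against 0.733 in Emerald-negative cells (0.639 to 0.841). The same sites in the rest of the genome stood at 0.780 in Emerald-high cells, against 0.550 in Emerald-negative cells. The chr13 ratio was thus 1.60 times that of the rest in Emerald-high cells (1.48 to 1.74), against 1.70 times in Emerald-negative cells (1.58 to 1.83). The chr4 ratio was 0.681 times that of the rest in Emerald-high cells (0.618 to 0.750), against 0.612 times in Emerald-negative cells (0.556 to 0.674). On chr2 it was 0.977 times (0.835 to 1.14) in Emerald-high cells, against 1.33 times (1.16 to 1.53) in Emerald-negative cells. These are sums over 154 sites with tags on chr13, 93 on chr4 and 77 on chr2. A sum gives most weight to the sites with most tags. Median scores of single sites, given further below, did not place chr13 above and chr4 below the rest in every class and fraction.

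In the summed tags the order held at whole-tag sites with 2 to 4 CCGG for chr13 and chr4. There the chr13 cluster stood at 1.48 in Emerald-high against 1.62 in Emerald-negative cells, the chr4 cluster at 0.453 in Emerald-high against 0.375 in Emerald-negative cells, and the rest at 0.871 in Emerald-high against 0.820 in Emerald-negative cells. The chr2 cluster, at 1.25 in Emerald-high against 1.75 in Emerald-negative cells, stood above the rest in this class. At dense whole-tag sites, where unmethylated CpG islands lie, the summed ratio of every cluster was well above the genome average. The ratio there was 2.32 in Emerald-high against 5.02 in Emerald-negative cells on chr2, with 3.58 (Emerald-high) against 6.995 (Emerald-negative) on chr4, 4.94 (Emerald-high) against 5.81 (Emerald-negative) on chr13, and 3.45 (Emerald-high) against 5.70 (Emerald-negative) in the rest. The intervals of the dense chr2 and chr4 sites, relative to the rest, included 1 in both fractions. On chr2 the sum rested on 4 neighbouring sites in the last 100 kb of the window, chr2:177853991-177854115. They held 33 of the 35 dense HpaII tags in Emerald-high and 106 of the 108 in Emerald-negative cells. The other 10 dense chr2 sites stood below 1, at 0.276 (Emerald-high) and 0.325 (Emerald-negative), from 2 HpaII tags in either fraction.

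**Figure D2:**
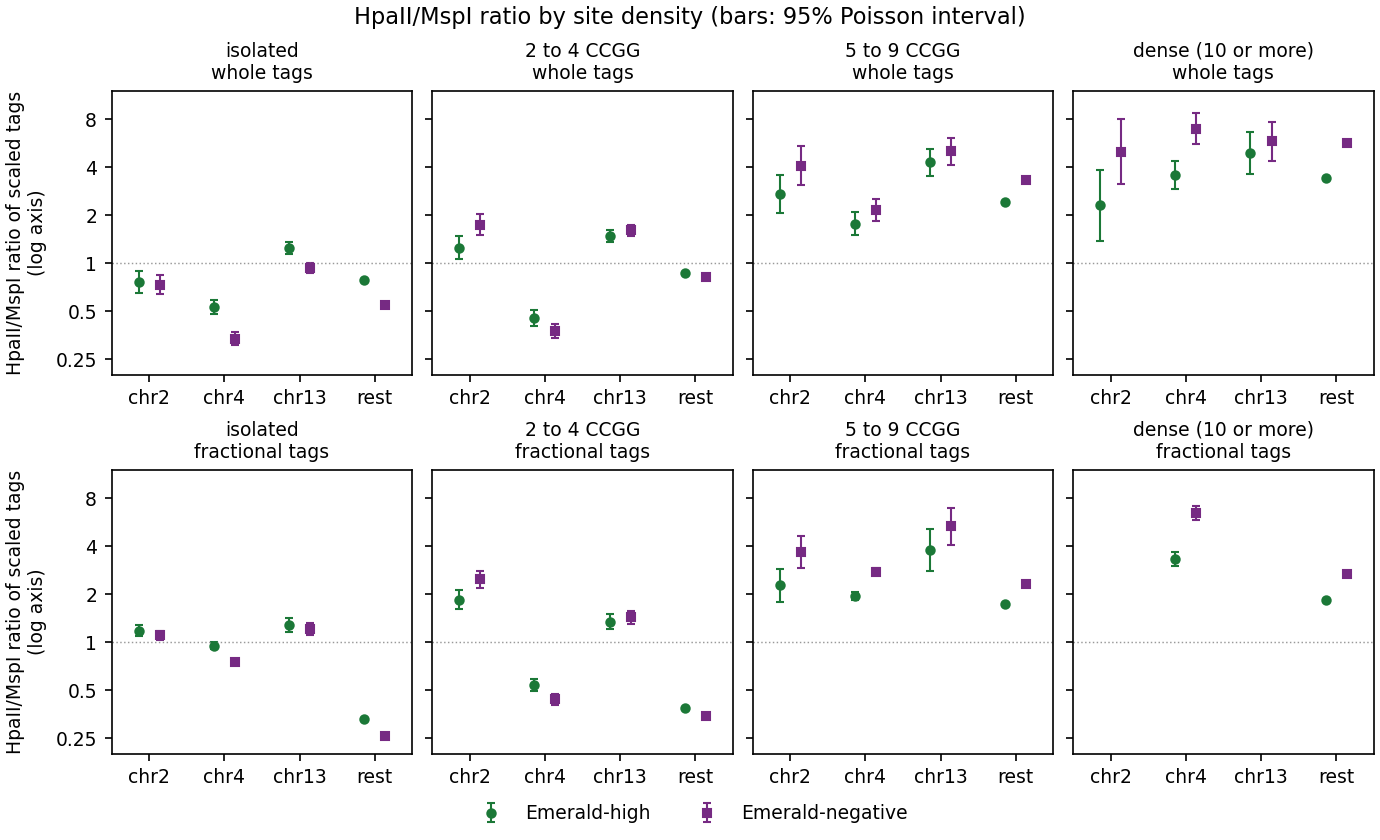
The HpaII/MspI ratio of scaled tags (y axis, log scale) is drawn for Emerald-high cells (circles, left) and Emerald-negative cells (squares, right) in each cluster and the rest of the genome, by density class, at whole-tag sites (upper row) and fractional sites (lower row), with bars for the 95% Poisson interval. At isolated whole-tag sites the chr13 cluster lies above the rest (1.25 against 0.780 in Emerald-high cells) and the chr4 cluster below it (0.532); no fractional dense sites exist on chr2 or chr13.

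Fractional sites, whose tags cannot be given to 1 copy, stood at ratios above 1 in all 3 clusters when summed over the density classes. The sums were 1.37 in Emerald-high against 1.47 in Emerald-negative cells on chr2, 1.20 (Emerald-high) against 1.32 (Emerald-negative) on chr4, and 1.40 (Emerald-high) against 1.45 (Emerald-negative) on chr13. By class the chr4 cluster was below 1 at isolated fractional sites, at 0.954 in Emerald-high against 0.748 in Emerald-negative cells, and at those with 2 to 4 CCGG, at 0.539 (Emerald-high) against 0.438 (Emerald-negative). Fractional sites in the rest stood at 0.459 in Emerald-high cells, against 0.443 in Emerald-negative cells. A few very deep positions weigh on the value of the rest. With the 0.1% of sites deepest in MspI tags left out, the rest stood at 0.900 in Emerald-high against 0.874 in Emerald-negative cells, and the clusters at 1.30 (Emerald-high) against 1.47 (Emerald-negative) on chr2, 1.47 (Emerald-high) against 1.79 (Emerald-negative) on chr4, and 1.21 (Emerald-high) against 1.23 (Emerald-negative) on chr13. In that comparison the isolated fractional sites of chr13 stood at 0.776 in Emerald-high against 0.519 in Emerald-negative cells and those of the rest at 0.795 in Emerald-high against 0.607 in Emerald-negative cells, so in that class chr13 no longer lay above the rest. The same was true of the chr4 fractional sites with 2 to 4 CCGG, which stood at 0.670 times the rest in Emerald-high cells, against 0.610 times in Emerald-negative cells. The dense fractional sites of chr4 had the highest fractional ratios of their cluster, at 3.33 in Emerald-high cells (3.01 to 3.68), against 6.48 in Emerald-negative cells (5.86 to 7.17), where dense fractional sites in the rest stood at 1.84 in Emerald-high against 2.69 in Emerald-negative cells.

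The comparison between fractions asks whether cluster DNA was methylated differently in cells with an active Zscan4c promoter. The log2 HpaII/MspI ratio of Emerald-negative cells was subtracted from that of Emerald-high cells, so a positive value means relatively more cutting in Emerald-high cells. Whole-tag sites of the chr2 cluster held 649 HpaII and 931 MspI tags in Emerald-high cells, against 1202 HpaII and 825 MspI tags in Emerald-negative cells, a log2 difference of -0.30 (-0.495 to -0.109). Those of the chr4 cluster held 1492 HpaII and 3524 MspI tags in Emerald-high cells, against 2167 and 3233 in Emerald-negative cells, a log2 difference of 0.10 (-0.018 to 0.217). Those of the chr13 cluster held 2523 and 2638 in Emerald-high cells, against 4084 and 2669 in Emerald-negative cells, a log2 difference of 0.08 (-0.022 to 0.190). Only the chr2 interval lay clear of 0. Between the MspI libraries alone, which do not depend on methylation, the log2 differences were 0.16 on chr2, 0.11 on chr4 and -0.03 on chr13. The chr2 value rested in part on the edge of the window. Its last 100 kb held 42.7% of the Emerald-high HpaII and 46.7% of the Emerald-negative HpaII tags of whole-tag sites, and without them the chr2 difference was -0.15 (-0.398 to 0.100). Its direction also depended on the scale: relative to the dense sites of each library the chr2 difference was 0.42, that of chr4 0.82 and that of chr13 0.80, and at chr2 sites where both MspI libraries held 10 tags or more it was 0.08 (-0.279 to 0.431).

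The pooled values hide opposite differences in the density classes. At isolated whole-tag sites HpaII cutting was higher in Emerald-high cells on chr4, with a log2 difference of 0.66 (0.464 to 0.857), and on chr13, with 0.42 (0.260 to 0.575). The isolated chr2 sites gave 0.06 (-0.245 to 0.357), and isolated sites in the rest gave 0.51. Set against the rest, the isolated sites were lower on chr2 by a log2 difference of -0.45 (-0.751 to -0.148). On chr4 that difference from the rest was 0.16 (-0.042 to 0.352) and on chr13 it was -0.09 (-0.246 to 0.069), both with intervals that include 0. At sites with 2 to 4 CCGG the chr2 cluster was again lower than the rest, by -0.57 (-0.887 to -0.246), and so was the chr13 cluster, by -0.21 (-0.379 to -0.042). The MspI libraries alone differed there by 0.285 on chr2, 0.132 on chr13 and 0.032 in the rest. The HpaII libraries alone differed by -0.195 (-0.416 to 0.025) on chr2, 0.008 on chr13 and 0.118 in the rest. Part of the chr2 and chr13 differences from the rest in this class therefore lay in the MspI libraries. At isolated sites the MspI libraries differed by 0.047 on chr2, 0.052 on chr4, -0.153 on chr13 and -0.124 in the rest. The chr2 class values were not recomputed without recurring values or without the last 100 kb of the window. Whole-tag sites of that last 100 kb gave a log2 difference of -0.52 by themselves. At dense whole-tag sites HpaII cutting was lower in Emerald-high cells on chr4, at -0.97 (-1.41 to -0.522), and on chr2, at -1.12 (-2.12 to -0.114), although relative to the dense sites of each library, which adds 0.72 to every value, these were -0.25 (-0.692 to 0.199) and -0.39 (-1.40 to 0.607). On chr13 it was -0.23 (-0.825 to 0.356), and in the rest -0.73. The MspI libraries differed by 0.62 at the dense chr4 sites, by 0.24 at those of chr2 and by -0.09 at those of chr13. Depth was least at the dense chr2 sites, which held 25 MspI tags in Emerald-high against 21 in Emerald-negative cells.

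Fractional sites showed the same order by density on chr4, at 0.35 (0.258 to 0.444) for isolated, 0.30 (0.140 to 0.460) for 2 to 4, -0.51 (-0.631 to -0.394) for 5 to 9 CCGG and -0.96 (-1.17 to -0.757) for dense sites. Relative to dense sites the 5 to 9 class turned to 0.21 (0.090 to 0.327) and the dense class stood at -0.24 (-0.445 to -0.036). The dense chr4 value was lower than that of dense fractional sites in the rest, at -0.55, by -0.41 (-0.619 to -0.203). With the 0.1% of sites deepest in MspI tags left out, the rest gave -0.62 and chr4 stayed at -0.96. The 86 dense fractional chr4 sites held 1162 HpaII and 578 MspI tags in Emerald-high cells, against 2902 HpaII and 437 MspI tags in Emerald-negative cells. The MspI libraries differed there by 0.39, against 0.175 at dense fractional sites in the rest. The HpaII libraries alone differed by -0.569 on chr4, against -0.375 in the rest, so part of the -0.41 lay in the MspI libraries. This class was not recomputed with equal values counted once. Isolated fractional sites gave 0.10 (-0.047 to 0.244) on chr2 and 0.08 (-0.101 to 0.270) on chr13, both lower than the 0.36 of the rest, by -0.26 (-0.406 to -0.115) and -0.27 (-0.461 to -0.089). The chr13 value turned on 5 very deep positions, since without them its isolated fractional sites gave 0.58. Because values recur between positions, the intervals of fractional sites are too narrow. Counting each set of 4 equal values once gave -0.05 on chr2 (against -0.11 with every position), -0.20 on chr4 (against -0.13) and -0.02 on chr13 (against -0.05). Intervals of whole-tag sites may be too narrow for the same reason. Without whole-tag sites of 20 or more tags whose 4 values recur, the pooled chr2 whole-tag difference was -0.23 (-0.448 to -0.016).

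**Figure D3:**
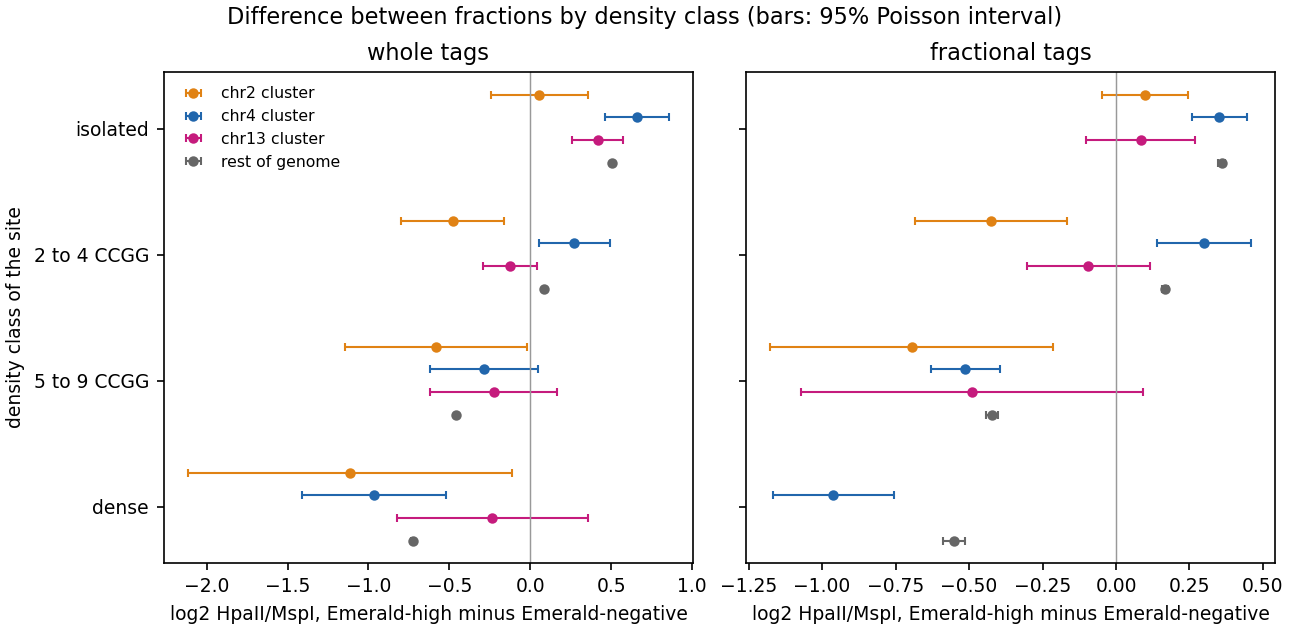
The log2 HpaII/MspI difference, Emerald-high minus Emerald-negative (x axis), is drawn by density class (y axis) for the 3 clusters and the rest of the genome at whole-tag sites (left) and fractional sites (right), with bars for the 95% Poisson interval. Values fall with density, from 0.66 at isolated to -0.97 at dense whole-tag sites of chr4, and the isolated chr2 value of 0.06 lies below the 0.51 of the rest.

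Single sites were scored by the angle measure of HELP tagging, from 0 (no HpaII tag) through 50 (equal scaled tags) to 100, at sites where both MspI libraries held 10 tags or more. Only 23 whole-tag sites on chr2, 90 on chr4 and 71 on chr13 reached that depth. The median score was 15.5 in Emerald-high against 16.6 in Emerald-negative cells on chr2, 20.4 (Emerald-high) against 12.9 (Emerald-negative) on chr4, 29.3 (Emerald-high) against 12.3 (Emerald-negative) on chr13, and 26.5 (Emerald-high) against 14.1 (Emerald-negative) over 206257 sites in the rest. On chr4 66 of the 90 sites scored higher in Emerald-high cells and 21 lower, on chr13 48 of 71 scored higher and 19 lower, and on chr2 12 of 23 higher and 11 lower. In the rest 65.3% of sites scored higher. Medians at isolated sites, Emerald-high against Emerald-negative, were 28.4 against 11.2 on chr13, 21.5 against 12.5 on chr4 and 26.5 against 12.9 elsewhere. At sites with 2 to 4 CCGG they were 18.8 against 16.2 on chr13, 17.1 against 13.1 on chr4 and 23.2 against 12.3 elsewhere. Unlike the summed ratios, these medians did not place chr13 above and chr4 below the rest throughout. Sites of the clusters are not replicates, and neighbouring ones may share tags. At the 14 dense fractional chr4 sites with enough tags the median was 82.8 in Emerald-high against 88.3 in Emerald-negative cells, and the score was lower in Emerald-high cells at all 14. Dense fractional sites in the rest, 423 with enough tags, had medians of 33.5 in Emerald-high against 23.8 in Emerald-negative cells, yet there too more sites scored lower in Emerald-high cells (231) than higher (189).

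Summed in 100 kb bins at whole-tag sites, 46 of the 67 bins of the clusters had 20 or more tags in both MspI libraries, 12 of 29 on chr2, 19 of 23 on chr4 and 15 of 15 on chr13. Bins were compared by a two-sided Fisher's exact test against the odds ratio that the library totals alone would give, adjusted by Benjamini-Hochberg over all 25235 bins tested in the genome. This test compares the libraries and not the conditions. A bin was called at an adjusted p under 0.05 and at least a 2-fold difference. Of the 46, 2 were called higher in Emerald-high cells, 4.35% against 7.11% of all bins tested, and 0 were called lower, against 0.0198%. With the adjusted p alone 5 were higher and 2 lower (20.5% and 5.23% of all bins), and with an unadjusted p under 0.05 6 were higher and 3 lower (30.2% and 7.94%). The median log2 difference of the tested bins was 0.16 on chr2, 0.20 on chr4 and 0.12 on chr13, against 0.27 over all bins. Relative to dense sites 15 of the 46 were called higher, against 48.8% of all bins.

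The called bin of the chr4 cluster was chr4:145600001-145700000, where 11 sites with whole tags held 68 HpaII and 178 MspI tags in Emerald-high cells, against 45 HpaII and 198 MspI tags in Emerald-negative cells. The log2 difference was 1.4997 ± 0.31 (SE from counts), with an adjusted p of 7.66e-05 by Fisher's exact test. The called bin of the chr2 cluster was chr2:177300001-177400000, with 28 HpaII and 80 MspI tags in Emerald-high cells, against 14 HpaII and 65 MspI tags in Emerald-negative cells, a log2 difference of 1.42 ± 0.52 and an adjusted p of 0.0346 by Fisher's exact test. The fractional sites of these bins held 445 HpaII and 459 MspI tags in Emerald-high cells, against 821 and 426 in Emerald-negative cells, in the chr4 bin, a log2 difference of -0.23 (-0.482 to 0.024). In the chr2 bin they held 218 HpaII and 176 MspI tags in Emerald-high cells, against 385 and 175 in Emerald-negative cells, a log2 difference of -0.07 (-0.454 to 0.317). Both intervals include 0. With fractional sites added to the whole-tag ones the log2 difference was -0.02 in the chr4 bin and -0.03 in the chr2 bin, and neither was called. The chr2 bin was also not called once counts were divided by the overdispersion between the MspI libraries (adjusted p = 0.0750 by Fisher's exact test) or once sites with recurring values were left out (adjusted p = 0.0825 by Fisher's exact test). With those sites left out, 3 of the 35 cluster bins still tested were called higher, against 7.11% of all bins.

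The next highest bins were not called. On chr4, 146900001 to 147000000 held 90 HpaII and 337 MspI tags in Emerald-high cells, against 69 and 290 in Emerald-negative cells, a log2 difference of 0.92 ± 0.26 that passed the adjusted p of Fisher's exact test (0.00374) but not the 2-fold limit. On chr2, 177700001 to 177800000 gave 0.51 ± 0.54. On chr13, 67700001 to 67800000 gave 1.25 ± 0.75 from 8 HpaII tags in Emerald-high cells, against 7 in Emerald-negative cells, and 66600001 to 66700000 gave 0.54 ± 0.23. The lowest bins gave -1.23 ± 0.59 and -0.58 ± 0.47 on chr4, -0.62 ± 0.58 and -0.56 ± 0.45 on chr2, and -0.57 ± 0.18 and -0.21 ± 0.17 on chr13. Of these, 67600001 to 67700000 on chr13 passed the adjusted p of Fisher's exact test (0.0133) but not the 2-fold limit. It held 215 HpaII and 261 MspI tags in Emerald-high cells, against 388 and 186 in Emerald-negative cells, and its MspI libraries alone differed by 0.48.

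**Figure D4:**
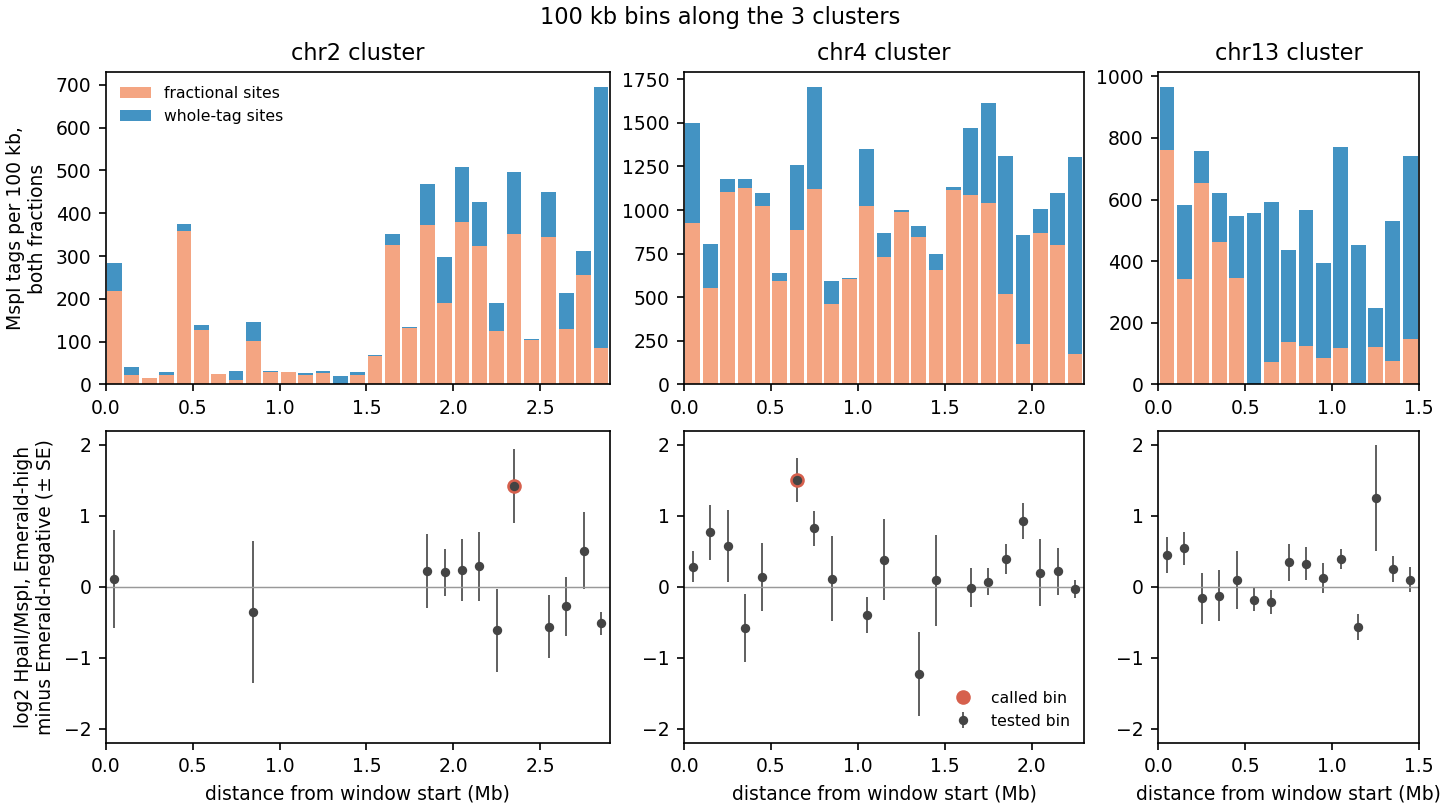
Upper panels give the MspI tags of both fractions per 100 kb bin (y axis), split into fractional and whole-tag sites, along the distance from the start of each window in Mb (x axis); lower panels give the log2 HpaII/MspI difference at whole-tag sites, Emerald-high minus Emerald-negative, in bins with enough tags, with bars for ± 1 SE and the 2 called bins in red. On chr2 17 of the 29 bins held too few whole tags to be tested.

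Dense runs, the CpG-island-like stretches, were most numerous on chr4, where dense sites within 1 kb of each other formed 15 runs, against 2 on chr2 and 1 on chr13. The 15 include single sites (chr4:146035002 and chr4:146316434) and pairs of sites 11 bp apart (chr4:145427252-145427263 and chr4:145722565-145722576). Those pairs held equal tags in all 4 libraries, as did the runs chr4:145930598-145931208 and chr4:146475958-146476568. The chr4 run with most MspI tags, at chr4:145335064-145335694, had 14 sites, 12 of them fractional. It held 219 HpaII and 102 MspI tags in Emerald-high cells, against 517 HpaII and 66.5 MspI tags in Emerald-negative cells, a log2 difference of -1.09 (-1.59 to -0.586). The next were chr4:145617364-145617955 and chr4:146206839-146207430, each 591 bp long with 13 sites. Both held 177 HpaII and 88 MspI tags in Emerald-high cells, against 449 and 61.5 in Emerald-negative cells, with a log2 difference of -1.10 (-1.63 to -0.565). Their values were equal in all 4 libraries, so they do not count as separate measurements. Whether the run at chr4:145335064-145335694 shares tags with them was not tested. In all 3 runs the ratio was above 3 in both fractions, between 3.33 and 3.57 in Emerald-high cells and between 7.12 and 7.58 in Emerald-negative cells.

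One chr4 run could be given a gene. The spacing of the 6 CCGG sites in the RefSeq promoter of Mfn2, which encodes a mitochondrial fusion protein and no zinc finger protein, was found at 1 place in the mm9 sites, 21.3 kb from the end of the window. These sites held 36 HpaII and 21 MspI tags in Emerald-high cells, against 73 and 13 in Emerald-negative cells, all whole. The whole run, chr4:147278425-147278881, held 106 of the 281 Emerald-high HpaII tags at dense whole-tag chr4 sites. In Emerald-negative cells it held 200 of the 602, so the dense whole-tag chr4 values rest in part on Mfn2. The method found 884 of 904 promoters with at least 4 CCGG at 1 place, and all 884 on their own chromosome. None of the zinc finger promoters listed for the 3 regions had 4 CCGG, so no other run was given a gene in this way. The Mfn2 bin, the last 100 kb of the window, held 26.1% of the Emerald-high HpaII and 30.9% of the Emerald-negative HpaII tags of whole-tag chr4 sites. Without it the chr4 whole-tag difference was 0.17 (0.038 to 0.309).

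On chr13 the 1 dense run, chr13:67033555-67034414, had 18 sites, none fractional. It held 167 HpaII and 56 MspI tags in Emerald-high cells, against 351 and 59 in Emerald-negative cells, a ratio of 4.94 (Emerald-high) against 5.81 (Emerald-negative) and a log2 difference of -0.23 (-0.825 to 0.356). On chr2 the run at chr2:177853991-177854115 held 33 HpaII and 13 MspI tags in Emerald-high cells, against 106 and 15 in Emerald-negative cells, a log2 difference of -0.72 (-1.93 to 0.496). The other chr2 run, chr2:176878751-176879235, had no tag at 8 of its 10 sites and 2 HpaII tags in either fraction, too few to compare between fractions. Its MspI tags numbered 12 in Emerald-high against 6 in Emerald-negative cells.

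The deepest single whole-tag site of the chr4 cluster, the isolated site 145029008, was nearly uncut in both fractions. It held 11 HpaII and 110 MspI tags in Emerald-high cells, against 2 HpaII and 123 MspI tags in Emerald-negative cells, scores of 10.4 (Emerald-high) and 1.01 (Emerald-negative) and a log2 difference of 3.38 (1.18 to 5.59). The deepest on chr13, 66926750, held 3 HpaII and 43 MspI tags in Emerald-high cells, against 0 HpaII and 63 MspI tags in Emerald-negative cells, where 0 allows up to 3 tags. The same 4 values stand at 1 more position, outside the cluster. On chr2 the deepest, 177853622, was mostly cut, with 41 HpaII and 28 MspI tags in Emerald-high cells, against 65 and 20 in Emerald-negative cells, scores of 75.1 (Emerald-high) and 80.6 (Emerald-negative). Among fractional sites the deepest were also well cut on chr2 and chr13. Site 177362678 on chr2 had scores of 83.5 in Emerald-high against 83.1 in Emerald-negative cells, and 66726672 on chr13 had 83.4 (Emerald-high) and 80.4 (Emerald-negative). Each of these also shares its 4 values with 1 position outside its cluster. The deepest on chr4, 145722144, had scores of 44.3 (Emerald-high) and 41.3 (Emerald-negative).

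Parts of the clusters could not be read at all because they hold no CCGG. The longest stretch without one ran 59.2 kb on chr2, from 177394166 to 177453341, 63.9 kb on chr4, from 145478663 to 145542555, and 22.5 kb on chr13, from 67139127 to 67161664. The median distance between neighbouring sites was 1196 bp on chr2, 511 bp on chr4 and 801 bp on chr13, against 657 bp over all sites. Whether these stretches are gaps of the assembly was not tested.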

How the data were processed

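Each of the 4 libraries (totals 5662614 for Emerald-high HpaII, 9372711 for Emerald-high MspI, 9535691 for Emerald-negative HpaII and 9307616 for Emerald-negative MspI tags, per the file headers) was deposited as estimated counts of tags at 1594137 CCGG positions, not scaled to depth. The submitters' processing notes give mm9 as the build. How tags were aligned, and how a tag matching several places was counted: not given in the sources used here. The summed tag column was used, with positions as the files give them. The 3 windows, classes and lists were chosen with earlier results of these data known.

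Tags were scaled to library totals. Intervals are Poisson for ratios and differences and exact (Clopper-Pearson) for shares. Bins were rounded to whole tags for Fisher's exact test, with Benjamini-Hochberg adjustment and a pseudocount of 1 tag for the 2-fold limit. Named in each cluster were the 2 highest and 2 lowest tested bins, up to 3 dense runs, the deepest whole-tag and fractional site and the longest gap. Promoters were found in the mm9 sites by their CCGG spacing alone.

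Alternatives were other scalings, tag minima, bin sizes, trimmed windows, HpaII alone, thinning, pseudocount 0.5 and an overdispersion of 1.35 between the MspI libraries. The tools were scipy 1.17.1, numpy 2.4.6 and pandas 2.3.3 in Python 3.11.15, with matplotlib 3.10.9 and numba 0.67.0, and the bin test was tested on simulated data.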

Additional observations from a re-analysis of the deposited data

How the results depend on the processing

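No paired analysis was possible because each enzyme and fraction has 1 library; leaving a replicate out was not possible for the same reason. Scaling the libraries to their dense sites raised every log2 difference by the same amount. Whole-tag sites then stood at 0.42 on chr2, 0.82 on chr4 and 0.80 on chr13, and fractional sites at 0.61, 0.59 and 0.67, so each value below 0 turned (chr2 whole-tag and all 3 fractional ones). That scaling called 15 bins higher, and whole-tag median scores became 4.69 in Emerald-high against 3.06 in Emerald-negative cells on chr2, 6.25 (Emerald-high) and 2.37 (Emerald-negative) on chr4, and 9.34 (Emerald-high) and 2.24 (Emerald-negative) on chr13. Sites with at least 10 MspI tags gave 0.076 on chr2, 0.32 on chr4 and 0.26 on chr13 at whole-tag sites and 0.045 on chr2 and 0.056 on chr4 at fractional sites, and isolated whole-tag sites gave 0.056, 0.66 and 0.42. Adding fractional to whole-tag sites gave -0.10 on chr4. The chr4 fractional value was -0.29 with the 0.1% deepest sites left out, -0.047 from the HpaII libraries alone and -0.20 with equal values counted once. Bins called higher numbered 1 with fractional sites added, 0 at 500 kb, 5 at 50 kb, 1 with overdispersion and 5 by adjusted p alone; bins called lower numbered 1 with no tag minimum and 2 by adjusted p alone. A minimum of 20 MspI tags left 1 whole-tag chr2 site, with scores of 75.1 in Emerald-high against 80.6 in Emerald-negative cells. Judged by the MspI libraries only, 21.2% of chr2 and 41.4% of chr4 sites were fractional. With a minimum of 5 MspI tags the order of the chr2 scores turned, to 22.4 in Emerald-high against 16.9 in Emerald-negative cells. Of the remaining values, the log2 differences kept their direction and stayed inside the interval of the reported value, as did the chr13 share of fractional sites, and the bin counts stayed within 1.5-fold; the medians of the scores moved by less than a margin that widens with the spread over sites and narrows with their number. The alternatives that count equal values once, leave out recurring values or drop the last 100 kb were chosen after seeing the data. On chr2 17 of 29 bins were too shallow to test.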
